A study of Mus musculus with 6 samples.

Results

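The 10 genes described here encode transcription factors and cofactors that control early blood development: Gata1, Gata2, Tal1, Lmo2, Lyl1, Runx1, Fli1, Erg, Zfpm1 and Gfi1b. They were taken by name from a table of 47643 mouse genes, all 10 were found in it, and 9 of them passed the filter on low counts. Poly(A) RNA had been sequenced from mast cells sorted out of mouse skin, in 3 embryonic and 3 adult libraries. Every mouse carried Cdh5CreERT2, a Cre recombinase that acts only after tamoxifen and is driven by the endothelial gene Cdh5, and every mouse received 4-hydroxytamoxifen (4OHT) at E7.5. The embryonic group (PRIM) was taken at E16.5 and gated as CD45+ F4/80- CD64- ckit+ ST2+, and the submitters describe it as derived from hemogenic endothelium (HE) of the yolk sac (YS). The adult group (DEF), which they call definitive, was gated as CD45+ F4/80- CD64- ckit+ Fcer1+, from skin whose epidermis had been taken off with Dispase. The labels state neither whether a lineage reporter entered the sort nor whether replicates were separate animals. Age, described origin, last gate marker and the Dispase step differ together between the groups and cannot be told apart. All p-values therefore rest on the spread among these 6 libraries, and that spread may be technical.

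GATA1 and GATA2 are zinc finger proteins that bind the sequence GATA, and GATA2 is required for mast cells to form. TAL1 and LYL1 are related basic helix-loop-helix proteins that pair with E-proteins, and LMO2 together with LDB1 bridges that pair to a GATA factor in one DNA-bound complex. RUNX1, which works with CBFB, and the ETS proteins FLI1 and ERG bind beside this complex in blood progenitors. ZFPM1 (FOG1) is a cofactor of GATA1 in red cells and megakaryocytes and holds back the mast cell fate when forced in progenitors. GFI1B is a transcriptional repressor that acts within the red cell and megakaryocyte lineages. ERG, FLI1, TAL1 and LMO2 are also made by endothelium, the tissue from which blood stem cells bud.

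Embryonic libraries held 34122162 to 46778093 counts in genes and adult libraries 40662062 to 49813523. Levels are given as CPM, counts divided by the TMM-scaled library size in units of 1e6 reads, with means ± SD of each group (n = 3 libraries). A count of 3 in a library corresponded to 0.0603 to 0.0850 CPM. Fold changes, log2 differences (embryonic minus adult) and adjusted p-values come from edgeR's quasi-likelihood test across all 15111 tested genes with Benjamini-Hochberg adjustment. Among mast cell genes, Cpa3 was at 38759 ± 1621 CPM in the embryo and 12887 ± 1093 CPM in the adult. Hdc was at 40044 ± 3957 and 17102 ± 1504 CPM, and Ms4a2, lower in the embryo, at 207 ± 11.2 and 1545 ± 120 CPM. Kit was at 4968 ± 326 and 5392 ± 488 CPM. Its protein was part of both gates, so its level is no independent sign of cell type. Fcer1a, the antigen of the adult gate, averaged 5.84 CPM in embryonic libraries. In bulk libraries, fewer cells of a type and less RNA per cell cannot be told apart.

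The factors divided by group. Gata1, Gata2, Lyl1 and Erg were higher in embryonic mast cells, Tal1, Lmo2, Runx1 and Zfpm1 were higher in adult mast cells, Fli1 did not pass the test, and Gfi1b was too low to be tested. Of the 9 tested members 4 were thus called in each direction, beside a background of 31.2% of all tested genes called higher in embryonic and 31.7% called higher in adult libraries (63.0% in either direction). The libraries of the groups did not overlap for any of the 8 called members, against 70.0% of all tested genes. The median log2 difference was -0.02 for the tested members and -0.02 for all tested genes. The members' median is the value of Fli1, which lies between 4 members called in each direction. It therefore does not gauge the size of their differences. Those of the called members ranged in size from 0.58 (Gata2) to 3.70 (Lmo2), beside a median absolute log2 difference of 0.82 over all tested genes. The members' share of calls (8 of 9) therefore stands beside a background in which most genes were called, and what follows describes the size and direction of each member.

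**Figure D1:**
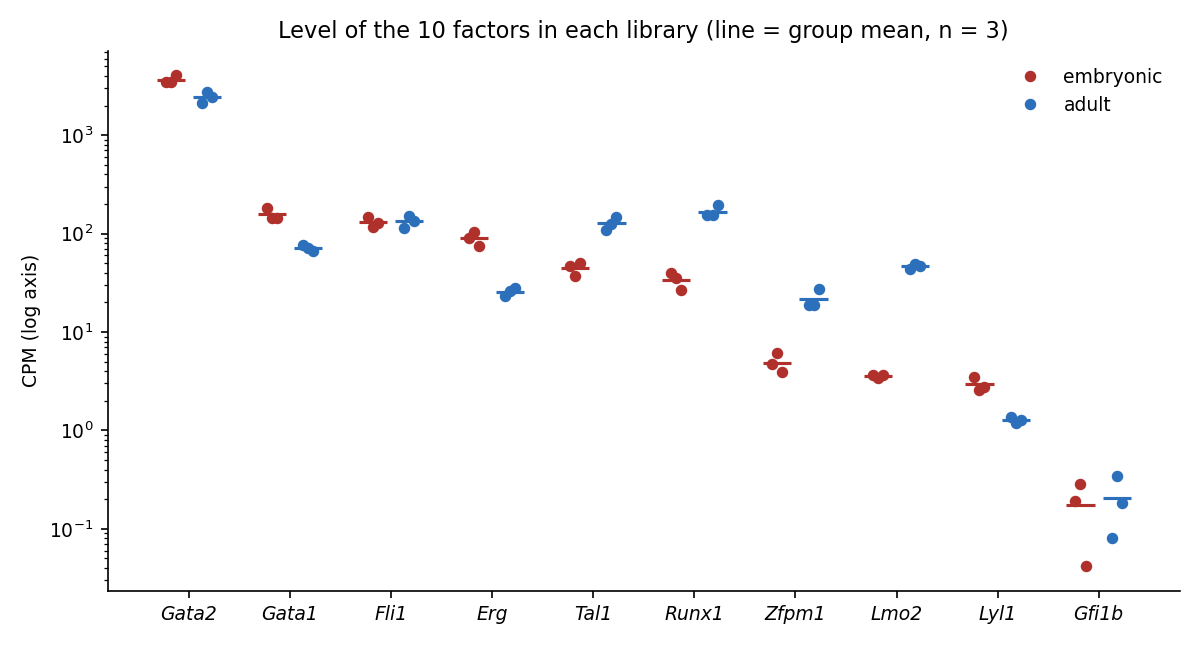
Level of the 10 factors on a log axis in CPM, with 1 point per library, embryonic in red and adult in blue, and a line at each group's mean. Gata2 lies at 2148 CPM or above in every library, Lmo2 averages 3.55 CPM in the embryo and 46.3 CPM in the adult, and Gfi1b stays at or below 0.346 CPM.

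Promoter sequence was at hand for 8 of the 10 members (13 start sites in RefSeq, build GRCm38.p6), and not for Lmo2 and Fli1. The 250 bases before each start were searched on both strands for letters typical of the sites these factors bind: for GATA factors the word AGATAA and its variant TGATAA, for TAL1 with an E-protein the word CAGATG, for ETS factors the word AGGAAG and the variant with a first C (CGGAAG), and for RUNX factors the word TGTGGT. The letters for GATA factors occurred in 3 of the 13 windows, beside 16.6% of 32817 RefSeq windows of the same length, and ETS letters in 5 of 13, beside 39.2%. CAGATG (14.5% of all windows) and TGTGGT (14%) were in none of the 13. Windows with a match and no annotated exon base are shown. They were picked for having a match, and words this short occur in many windows of other genes, at the shares given above. Each is written 5′ to 3′ on the gene's strand, and capitals mark the matches, which appear as the reverse complement where the letters lie on the other strand (Tal1, Lyl1 and Erg).

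Gfi1b, chr2:28621983-28622232, minus strand: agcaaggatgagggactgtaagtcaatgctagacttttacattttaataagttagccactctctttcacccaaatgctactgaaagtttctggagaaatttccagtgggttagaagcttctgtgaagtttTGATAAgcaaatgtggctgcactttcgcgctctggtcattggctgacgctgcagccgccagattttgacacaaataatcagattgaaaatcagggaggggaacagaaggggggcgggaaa
Tal1, chr4:115056176-115056425, plus strand: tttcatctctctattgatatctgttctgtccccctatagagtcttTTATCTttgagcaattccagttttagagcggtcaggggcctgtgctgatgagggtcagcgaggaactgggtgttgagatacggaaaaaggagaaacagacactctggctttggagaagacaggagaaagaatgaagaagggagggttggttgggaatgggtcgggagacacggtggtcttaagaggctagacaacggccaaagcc
Lyl1, chr8:84701207-84701456, plus strand: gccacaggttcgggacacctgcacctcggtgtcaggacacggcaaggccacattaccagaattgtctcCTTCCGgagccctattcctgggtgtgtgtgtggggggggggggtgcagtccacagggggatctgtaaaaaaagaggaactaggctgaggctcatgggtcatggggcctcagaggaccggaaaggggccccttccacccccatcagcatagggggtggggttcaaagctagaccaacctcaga
Zfpm1, chr8:122281891-122282140, plus strand: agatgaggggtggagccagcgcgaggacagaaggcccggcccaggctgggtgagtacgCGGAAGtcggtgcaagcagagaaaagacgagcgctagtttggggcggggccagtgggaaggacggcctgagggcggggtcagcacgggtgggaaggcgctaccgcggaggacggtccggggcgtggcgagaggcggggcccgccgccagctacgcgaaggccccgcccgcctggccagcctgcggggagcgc
Erg, chr16:95459349-95459598, minus strand: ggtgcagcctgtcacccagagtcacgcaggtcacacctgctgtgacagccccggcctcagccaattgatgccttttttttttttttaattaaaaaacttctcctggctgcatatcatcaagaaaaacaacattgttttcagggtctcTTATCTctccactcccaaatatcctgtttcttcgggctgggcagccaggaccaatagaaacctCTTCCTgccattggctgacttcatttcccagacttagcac
Gata1, chrX:7967911-7968160, minus strand: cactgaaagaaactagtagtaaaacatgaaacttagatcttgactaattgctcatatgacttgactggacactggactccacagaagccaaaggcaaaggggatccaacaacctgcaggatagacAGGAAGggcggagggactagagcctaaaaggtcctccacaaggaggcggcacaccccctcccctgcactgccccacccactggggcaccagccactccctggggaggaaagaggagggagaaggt

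Tal1, higher in adult libraries, and Erg, higher in embryonic libraries, each had GATA letters, and so did Gfi1b, which was near the detection floor. The Erg window lies at the start site farthest inside the gene, and gene counts do not show which start site was used. A match is a description of letters, not of binding.

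Gata2 was the most abundant of the 10 in every library. It lies on chromosome 6, 88193891 to 88207032 (GRCm38, ENSMUSG00000015053.14, 5398 exon bases). Its level was 3454, 3479 and 4070 CPM in the embryonic libraries and 2148, 2779 and 2428 CPM in the adult libraries. All embryonic values lay above all adult values, though the gap was small. Gata2 was 1.5-fold higher in embryonic cells (log2 difference 0.58 ± 0.12 SE, adjusted p = 0.0024). Per exon kilobase its level exceeded that of 99.8% of tested genes in embryonic and 99.5% in adult cells.

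Gata1 (chromosome X, 7959260 to 7978071, ENSMUSG00000031162.14), the factor of red cell, megakaryocyte and mast cell maturation, was at 182, 145 and 145 CPM in the embryo and 76.7, 71.9 and 66.1 CPM in the adult. The lowest embryonic library stood well above the highest adult one. It was 2.20-fold higher in embryonic cells (log2 difference 1.14 ± 0.12 SE, adjusted p = 2.0e-05). Of 14 red cell genes, 7 were tested. Of these, 6 had higher embryonic and 0 higher adult levels, beside 31.2% and 31.7% of all tested genes. The tested red cell genes had a median log2 difference of 4.97. Their summed level was 160 to 351 CPM in the embryo and 13.5 to 19.3 CPM in the adult, led by the globins Hbb-bs (98.5 ± 41.8 against 3.10 ± 1.83 CPM) and Hbb-bt (35.8 ± 15.8 against 0.572 ± 0.252 CPM). The red cell sum was highest in embryonic replicate 3 (351 CPM), where Gata1 was not at its highest, and Klf1, the red cell master regulator, was at 3.57 CPM in embryonic libraries. The part of red cell RNA in the Gata1 difference was not tested.

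Gata2 outweighed Gata1 in all libraries. Per exon kilobase, the scale on which genes of unequal length compare, the Gata2 to Gata1 ratio was 8.59, 10.8 and 12.6 in embryonic and 12.7, 17.5 and 16.6 in adult libraries. The groups all but met, at embryonic replicate 3 and adult replicate 1. The mean log2 ratio was 0.55 lower in embryonic libraries, at 3.40 ± 0.28 against 3.95 ± 0.25 (SD, n = 3; exact two-sided permutation test, p = 0.10, the smallest that 3 against 3 libraries allow, and 0.10 adjusted over 3 ratios). Gata3, the T cell and innate lymphoid member of the family, was at 6.16 ± 0.877 CPM in the embryo and 28.1 ± 5.36 CPM in the adult, higher in adult cells (log2 difference -2.19, adjusted p = 5.1e-06). It made up 0.208% ± 0.027 of the summed GATA level per exon kilobase in embryonic and 1.43% ± 0.136 in adult libraries. Gata4 and Gata6, factors of heart and gut, were too low to be tested, and Gata5 had no count.

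Zfpm1 (chromosome 8, 122282141 to 122337251, ENSMUSG00000049577.14), the GATA1 cofactor, went the opposite way to Gata1. It was at 4.68, 6.06 and 3.94 CPM in the embryo and 18.8, 18.9 and 27.4 CPM in the adult. Adult replicate 3 was the highest and stood apart from the other two adult libraries, and all embryonic values were lower than all adult values. The gene was 4.44-fold higher in adult cells (log2 difference -2.15 ± 0.22 SE, adjusted p = 1.7e-05). Its relative Zfpm2 did not pass the test, at 0.216 and 0.151 CPM.

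Lmo2, the bridge protein, differed most among the members. It lies on chromosome 2, 103957986 to 103981878 (ENSMUSG00000032698.15), and was at 3.63, 3.37 and 3.65 CPM in the embryo and 43.3, 48.6 and 47.2 CPM in the adult. Values within each group were close, and the groups stood far apart. Lmo2 was 13.0-fold higher in adult cells (log2 difference -3.70 ± 0.13 SE, 95% interval -3.99 to -3.42, adjusted p = 1.8e-08).

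The LIM-only family exchanged its leading member between the groups. Lmo4, a relative of broad expression, was at 62.2 ± 8.48 CPM in the embryo and 22.9 ± 5.41 CPM in the adult, a 2.72-fold higher embryonic level (adjusted p = 8.5e-05). Lmo3, a relative best known from nerve tissue, was at 0.451 ± 0.171 CPM in the embryo and 17.9 ± 1.19 CPM in the adult (log2 difference -5.31, adjusted p = 2.2e-07). Per exon kilobase, Lmo2 made up 7.86%, 9.30% and 8.15% of the family's sum in embryonic libraries and 66.8%, 63.7% and 68.5% in adult libraries. Lmo4 took 90.0% ± 1.30 of the sum in embryonic and 19.9% ± 3.04 in adult libraries. The family's sum itself was 19.6 ± 2.48 in embryonic and 32.3 ± 2.69 CPM per kilobase in adult libraries, without overlap. These shares follow from the genes' own levels and were not tested separately.

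**Figure D2:**
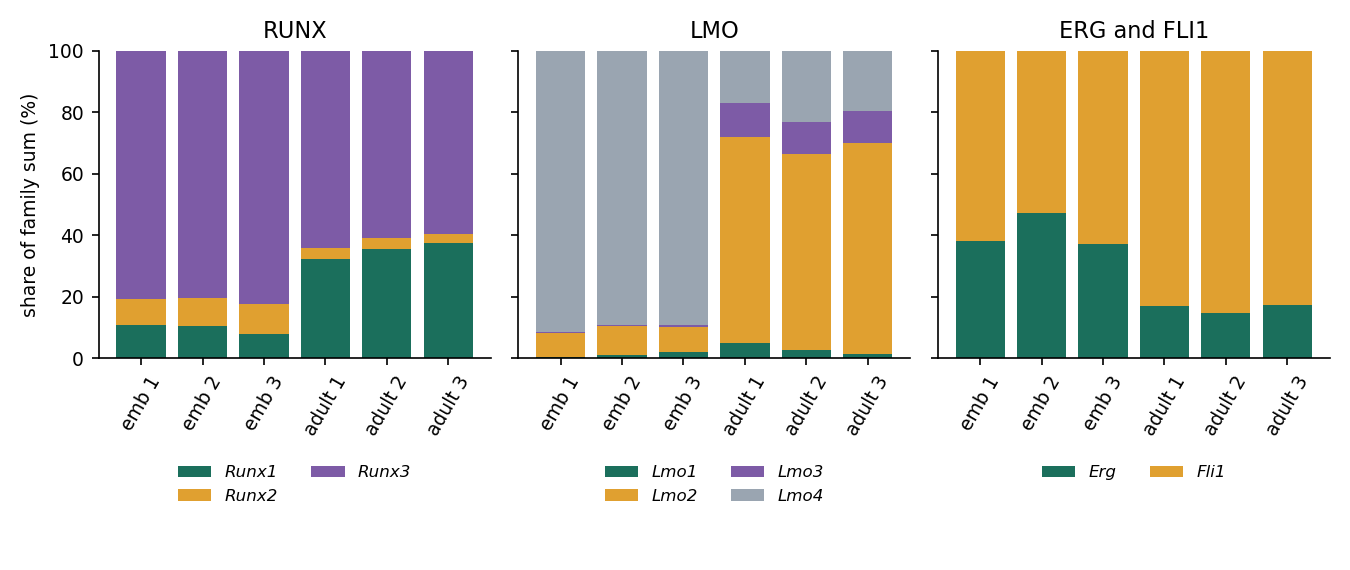
Share (percent) of each gene in the summed level per exon kilobase of its family, in 3 embryonic (emb) and 3 adult libraries, for the RUNX family, the LIM-only (LMO) family and the pair Erg and Fli1. Lmo4 fills 89.1% to 91.4% of the LMO bars in embryonic libraries and Lmo2 63.7% to 68.5% in adult libraries, and the Runx1 share is 7.78% to 10.7% against 32.3% to 37.5%.

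Tal1 (chromosome 4, 115056426 to 115071755, ENSMUSG00000028717.12), whose window above holds GATA letters, was at 47.2, 36.7 and 50.6 CPM in the embryo and 109, 127 and 149 CPM in the adult. Every adult value lay far above every embryonic one. Tal1 was 2.86-fold higher in adult cells (log2 difference -1.52 ± 0.15 SE, adjusted p = 1.8e-05). Its relative Lyl1 (chromosome 8, 84701457 to 84704715, ENSMUSG00000034041.4) was low in both groups and leaned the other way, at 3.50, 2.58 and 2.75 CPM in the embryo and 1.37, 1.18 and 1.26 CPM in the adult. These values rest on 91 to 163 counts per embryonic and 48 to 68 counts per adult library. Lyl1 was 2.32-fold higher in embryonic cells (log2 difference 1.21 ± 0.31 SE, adjusted p = 0.0070).

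Tal1 exceeded Lyl1 per exon kilobase in every library. The ratio was 5.54, 5.86 and 7.55 in embryonic and 32.9, 44.3 and 48.4 in adult libraries. The mean log2 ratio was 2.65 ± 0.24 in embryonic and 5.37 ± 0.29 in adult libraries, a difference of -2.72 (SD, n = 3; exact two-sided permutation p = 0.10). Lyl1 supplied 13.9% ± 1.90 of the summed Tal1 and Lyl1 level in embryonic and 2.40% ± 0.491 in adult libraries.

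Genes around the TAL1 and LMO2 complex went both ways. The list holds scaffold and corepressor genes, E-proteins, their Id inhibitors and relatives of Lmo2. Of 18 tested LIM complex and E-protein partners, 8 had higher adult and 3 higher embryonic levels (median log2 difference -0.27), beside 31.7% and 31.2% of all tested genes. The adult count was 5 without embryonic replicate 1. Ldb1, the scaffold that holds the complex, was at 91.9 ± 1.70 CPM in the embryo and 182 ± 29.6 CPM in the adult (log2 difference -0.98, adjusted p = 6.9e-05). Ssbp4, which belongs to a family that shields LDB1 from breakdown, was higher in adult cells (log2 difference -0.84, adjusted p = 0.00011), whereas its relative Ssbp3 was higher in embryonic cells (0.78, adjusted p = 0.00056). Cbfa2t3 (ETO2), the corepressor of the complex, was 1.40-fold higher in embryonic cells (adjusted p = 0.0032). Id2, an inhibitor that binds E-proteins, was the most abundant of the list per exon kilobase and was higher in adult cells, at 657 ± 67.2 against 485 ± 84.3 CPM (log2 difference -0.44, adjusted p = 0.019). The E-proteins Tcf3 and Tcf12 did not pass the test, at 121 and 112 CPM and at 93.4 and 103 CPM in the embryo and adult libraries.

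Runx1 (chromosome 16, 92601466 to 92826149, ENSMUSG00000022952.16), a factor that endothelium needs to give rise to blood, was at 39.9, 35.1 and 26.6 CPM in the embryo and 153, 153 and 194 CPM in the adult. Adult replicate 3 was again the highest, and the groups were well apart. Runx1 was 4.93-fold higher in adult cells (log2 difference -2.30 ± 0.17 SE, adjusted p = 2.4e-06). An antisense neighbour on the other strand shares 0.896% of its exon bases. Runx3, a relative with roles in T cells and myeloid cells, did not pass the test, at 121 ± 5.61 and 124 ± 10.9 CPM (log2 difference -0.03, adjusted p = 0.80). Runx2, the factor of bone formation, was at 23.9 ± 0.737 CPM in the embryo and 11.5 ± 0.797 CPM in the adult, a 2.07-fold higher embryonic level (adjusted p = 5.3e-05). Per exon kilobase, Runx1 made up 9.60% ± 1.60 of the RUNX sum in embryonic and 35.1% ± 2.64 in adult libraries, and Runx3 stayed the leading member in both. Cbfb, the partner subunit that all RUNX proteins share, was higher in adult cells (log2 difference -0.60, adjusted p = 0.00062). The RUNX sum was 29.7 ± 1.46 CPM per kilobase in embryonic and 40.1 ± 3.65 in adult libraries.

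Erg and Fli1 are close relatives that parted here. Erg (chromosome 16, 95359169 to 95586593, ENSMUSG00000040732.18), whose innermost window above holds GATA and ETS letters, was at 91.1, 104 and 75.7 CPM in the embryo and 23.2, 25.9 and 28.1 CPM in the adult. The lowest embryonic value was well above the highest adult value. Erg was 3.51-fold higher in embryonic cells (log2 difference 1.81 ± 0.14 SE, adjusted p = 2.5e-06). Fli1 (chromosome 9, 32422204 to 32542861, ENSMUSG00000016087.13) was at 148, 117 and 130 CPM in the embryo and 114, 153 and 135 CPM in the adult. Its groups overlapped fully. The log2 difference of Fli1 was -0.02 ± 0.13 SE (95% interval -0.32 to 0.27, adjusted p = 0.89), an interval that leaves room for a modest change in either direction.

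The Erg to Fli1 ratio per exon kilobase was 0.617, 0.895 and 0.588 in embryonic and 0.204, 0.171 and 0.210 in adult libraries. Fli1 was the more abundant of the pair in all 6 libraries. The mean log2 ratio was -0.54 ± 0.33 in embryonic and -2.37 ± 0.16 in adult libraries (difference 1.82; SD, n = 3; exact two-sided permutation p = 0.10). Erg and Runx1 lie on the same chromosome and differed in opposite directions, as did Lyl1 and Zfpm1 on chromosome 8.

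**Figure D3:**
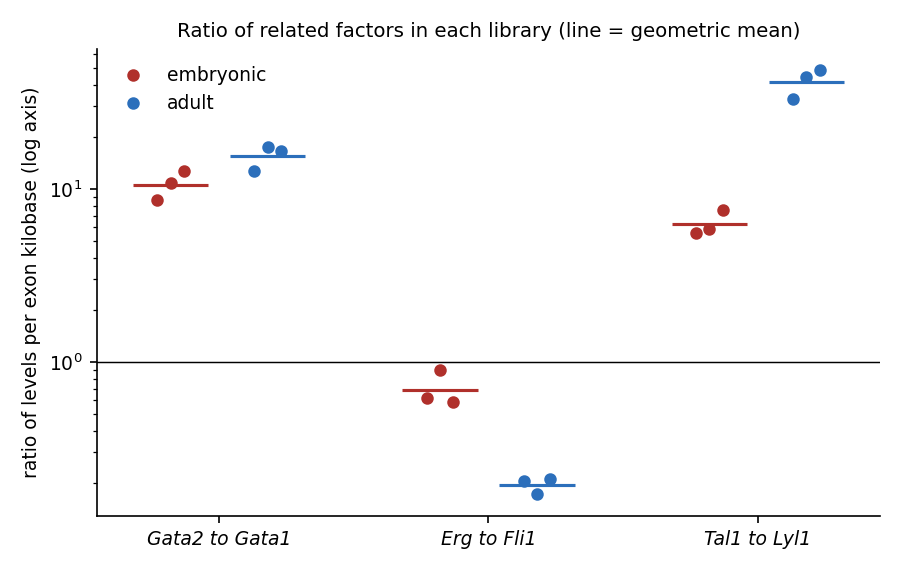
Ratio of levels per exon kilobase (log axis) for Gata2 to Gata1, Erg to Fli1 and Tal1 to Lyl1 with 1 point per library, embryonic in red and adult in blue, and lines at the geometric means. The Tal1 to Lyl1 ratio is 5.54 to 7.55 in embryonic and 32.9 to 48.4 in adult libraries, and the Erg to Fli1 ratio is below 1 throughout.

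Because endothelium also makes Erg, endothelial genes were read beside it. All 16 were tested, and 7 had higher embryonic and 1 higher adult levels, beside 31.2% and 31.7% of all tested genes. The embryonic count was 4 without adult replicate 2 or without adult replicate 3. The adult count was 2 without embryonic replicate 3 and 0 without adult replicate 1. With the filter of at least 1 CPM in 3 libraries the counts were 3 and 0. The median log2 difference of the 16 endothelial genes was 1.22. Their summed level was 46.3 to 64.7 CPM in the embryo and 13.0 to 26.7 CPM in the adult. Pecam1 and Egfl7 made up most of the embryonic sum. Cdh5, the defining endothelial cadherin, was at 0.885 ± 0.322 CPM in the embryo and 0.110 ± 0.062 CPM in the adult. Pecam1, which leukocytes also carry, was at 24.0 ± 1.81 against 3.22 ± 1.19 CPM, and Egfl7 at 16.7 ± 1.21 against 6.64 ± 0.487 CPM. The sum in the 3 embryonic libraries was 51.5, 46.3 and 64.7 CPM, where Erg was at 91.1, 104 and 75.7 CPM. The part of endothelial RNA in the Erg difference was not tested.

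Gfi1b (chromosome 2, 28609450 to 28621982, ENSMUSG00000026815.14) was barely detected. It had 9, 10 and 2 counts in the embryonic and 4, 15 and 7 counts in the adult libraries, or 21 against 26 in all. The embryonic to adult ratio was 0.816, with a 95% counting interval of 0.436 to 1.51, so no difference was detectable at this depth. Gfi1, its relative from myeloid and lymphoid cells, was at 202 ± 57.1 CPM in the embryo and 112 ± 8.46 CPM in the adult, 1.81-fold higher in embryonic cells (adjusted p = 0.0029). Per exon kilobase, Gfi1 made up 99.47% to 99.97% of the summed level of both genes across the 6 libraries. Their shared cofactors differed in direction: Kdm1a, a histone demethylase, was higher in adult cells (log2 difference -1.15, adjusted p = 2.9e-05), while Rcor1, the scaffold of that enzyme, and Hdac2, a histone deacetylase, were higher in embryonic cells (0.47 and 0.79, adjusted p = 0.0017 and 7.6e-05). Over the whole list of relatives and cofactors, 5 of 11 tested genes had higher embryonic and 3 higher adult levels (median log2 difference 0.43). The shares over all tested genes were 31.2% and 31.7%.

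**Figure D4:**
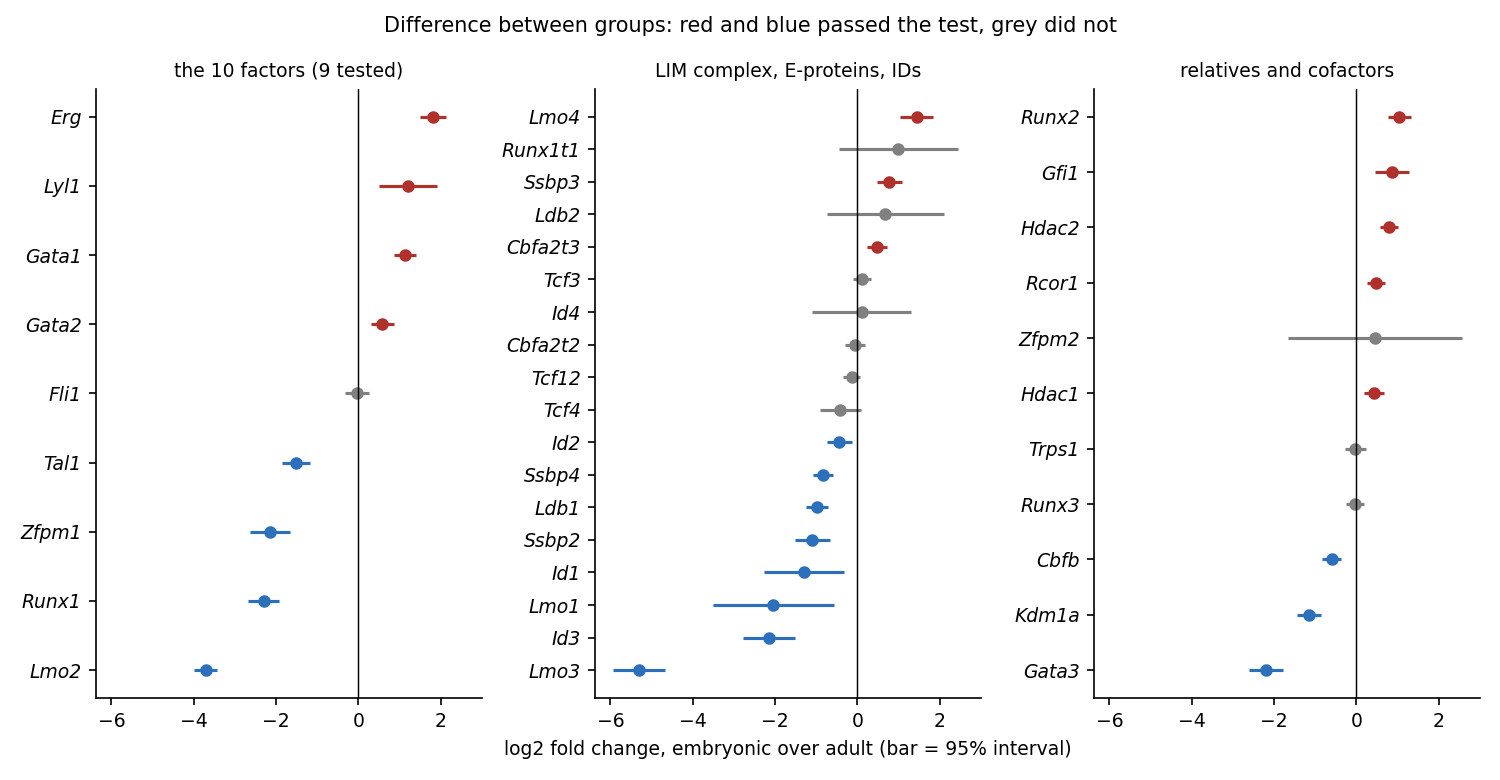
Log2 difference (embryonic over adult, x axis) with its 95% interval for the 9 tested factors, for 18 partners of the TAL1 and LMO2 complex, and for 11 relatives and cofactors. Red points are called higher in embryonic cells, blue points higher in adult cells, and grey points did not pass the test. Lmo3 lies farthest to the left at -5.31, and Lmo2 at -3.70 is the farthest of the 9 factors.

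By level per exon kilobase the members kept a wide range in both groups. In embryonic cells the order of the means was Gata2 (679), Gata1 (64.5), Fli1 (37.8), Erg (26.1), Tal1 (10.2), Runx1 (2.86), Lmo2 (1.64), Lyl1 (1.64), Zfpm1 (1.40) and Gfi1b (0.0944). The libraries of Lmo2, Lyl1 and Zfpm1 overlapped, so their order was within their spread. In adult cells it was Gata2 (454), Fli1 (38.4), Gata1 (29.3), Tal1 (29.3), Lmo2 (21.4), Runx1 (14.1), Erg (7.42), Zfpm1 (6.20), Lyl1 (0.705) and Gfi1b (0.111). In the adult libraries Tal1 overlapped with Gata1 and with Fli1, and Erg overlapped with Zfpm1. The Lmo2 level exceeded that of 40.2% of tested genes in embryonic and 84.9% in adult cells.

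Among genes of the partner, relative, ETS and other hematopoietic lists, the pattern most like each called member was sought as the smallest root mean square difference of centred log2 CPM over the 6 libraries. Runx2 was nearest to Gata1 (0.139) and to Lyl1 (0.139), with Ssbp3 next (0.199 and 0.160). Gata2 was nearest to Etv5 (0.116) and Elk3 (0.126). Ets2 was nearest to Tal1 (0.223), Zfpm1 (0.196) and Runx1 (0.296), followed by Elf2 for Tal1 (0.243) and by Gata3 for Zfpm1 (0.282) and Runx1 (0.336). Lmo2 was nearest to Lmo3 (0.418) and Ets1 (0.456), and Erg to Bcl11a (0.319) and Lmo4 (0.331). The distance includes the group difference itself. Before the log, 0.5 was added to CPM, which shrinks the differences of low genes. Lmo3 averaged 0.451 CPM in the embryo and Bcl11a 0.676 CPM in the adult. Their edgeR log2 differences, -5.31 and 2.84, were larger in size than those of Lmo2 (-3.70) and Erg (1.81). Ets1 (-3.84) and Lmo4 (1.44) were closer on that scale. Ranks without the added 0.5 were not tested.

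ETS factors other than Erg and Fli1 also went both ways. Of 14 tested, 7 had higher adult and 2 higher embryonic levels (median log2 difference -0.43), beside the same background of 31.7% and 31.2%. Ets2 was at 46.8 ± 1.97 CPM in the embryo and 165 ± 25.7 CPM in the adult, 3.52-fold apart (adjusted p = 1.3e-06), with Elk4 (log2 difference -1.22, adjusted p = 3.3e-06) and Elf2 (-1.30, adjusted p = 1.3e-05). Elk3 (0.61, adjusted p = 0.0025) and Etv5 (0.51, adjusted p = 0.0070) were higher in embryonic cells. The most abundant per exon kilobase did not pass the test: Elf1 averaged 686 and 759 CPM, and Spi1 (PU.1), the factor that balances GATA factors between myeloid fates, 93.3 and 113 CPM (log2 difference -0.28, adjusted p = 0.065).

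Among 14 other hematopoietic factors, 4 were higher in embryonic cells and 1 in adult cells (2 without adult replicate 1). Their median log2 difference was 0.24, and the shares over all tested genes were 31.2% and 31.7%. Meis1, a homeobox factor of stem and progenitor cells, was at 43.3 ± 4.09 CPM in the embryo and 8.43 ± 1.45 CPM in the adult, 5.13-fold apart (adjusted p = 8.4e-07). Bcl11a was at 4.84 ± 0.430 against 0.676 ± 0.284 CPM (adjusted p = 9.6e-05) and Klf1 at 3.57 ± 0.955 against 0.129 ± 0.098 CPM (adjusted p = 6.7e-05). Myb, a progenitor factor, was 1.48-fold higher in embryonic cells (adjusted p = 0.00075). Hhex was higher in adult cells (log2 difference -0.67, adjusted p = 0.0040), and Cebpb, the most abundant per exon kilobase, did not pass the test, at 257 ± 70.6 and 219 ± 18.8 CPM.

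GATA factors are known to bind several mast cell genes. A link between the Gata1 and Gata2 levels and those genes was not tested. Of 16 mast cell genes tested, 7 had higher adult and 5 higher embryonic levels, beside 31.7% and 31.2% of all tested genes. The median log2 difference of the list was -0.27. Il1rl1, which encodes ST2 of the embryonic gate, is among those higher in embryonic cells, at 1521 ± 83.1 against 887 ± 43.4 CPM. Its level is therefore not independent of the sort. Ms4a2, the beta chain of the IgE receptor, was higher in adult cells at 1545 ± 120 against 207 ± 11.2 CPM (adjusted p = 3.2e-08), and so were the chymase Mcpt4 (log2 difference -2.79) and Fcer1a (-7.02), the gate antigen. Adult cells were gated on this receptor, so the levels of Ms4a2 and Fcer1a are not independent of the sort. Cpa3 (1.59, adjusted p = 1.3e-06), the chymase Cma1 (1.57, adjusted p = 3.1e-06) and Hdc (1.23, adjusted p = 1.3e-05) were higher in embryonic cells.

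Genes of other cells were read over whole lists, beside 31.2% of all tested genes called higher in embryonic and 31.7% in adult libraries. Megakaryocyte genes summed to 122 to 180 CPM in the embryo and 855 to 1150 CPM in the adult, and Itga2b (CD41) made up most of the adult sum, at 952 ± 155 against 69.9 ± 32.4 CPM. Gp1ba was at 74.6 and 62.7 CPM, and Gp6 had no count. Of 7 tested megakaryocyte genes (median log2 difference -0.20), 3 had higher adult and 2 higher embryonic levels (4 in embryonic without adult replicate 2). Macrophage genes summed to 5.41 to 12.7 CPM in the embryo and 34.0 to 36.6 CPM in the adult, with 7 of 8 higher in adult cells (median log2 difference -3.18), among them Cd163 (15.6 against 0.0419 CPM). The part of macrophage and megakaryocyte RNA in the adult levels of Runx1, Tal1 and Zfpm1 was not tested.

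Basophil genes summed to 689 to 869 CPM in the embryo and 352 to 459 CPM in the adult (2 of 3 higher in embryonic), led by Cd200r3, at 403 and 392 CPM, and Prss34, at 345 and 0.976 CPM. Eosinophil genes summed to 56.1 to 62.6 and 13.6 to 17.9 CPM (3 of 4 higher in embryonic, 1 in adult), with Il5ra at 31.3 and 11.5 CPM, Prg3 at 10.5 and 0.0252 CPM, and Epx without a count. T cell genes stayed at or below 3.12 CPM in sum (1 of 2 higher in embryonic, Cd3g, at 2.49 and 0.205 CPM, with Cd3e at 0.00696 and 0.305 CPM). No T cell gene was called higher in adult cells by edgeR at the main settings (1 at an unadjusted p under 0.05). The count was 2 with the filter of at least 1 count and all libraries. It was 1 without embryonic replicate 1 or 3 and 2 without embryonic replicate 2 or adult replicate 3. B cell genes stayed at or below 7.80 CPM (1 higher in each group, Cd79b at 6.97 and 0.0490 CPM and Cd79a at 0.0749 and 0.455 CPM, with Ms4a1 and Pax5 without a count). Neutrophil genes stayed at or below 0.603 CPM, with Mpo at 0.160 and 0.244 CPM, S100a9 at 0 and 0.0881 CPM, and 0 of 1 called. Fibroblast genes summed to 552 to 683 CPM in the embryo and 91.4 to 504 CPM in the adult, with Col3a1 at 291 and 95.9 CPM and Dcn at 21.6 and 102 CPM. Dcn was the 1 call of 6, higher in adult, and this call was lost on leaving out any one library other than adult replicate 3. It was also lost with all libraries under the filter of at least 1 count and under the replicate block. No fibroblast gene was called higher in embryonic cells by edgeR at the main settings (1 at an unadjusted p under 0.05). With all libraries this count was 1 with RLE scaling and 1 with the filter of at least 1 count. It was 2 without robust estimation, 2 with the replicate block, and 3 by DESeq2 and by limma-voom. On leaving out single libraries it was 2 without adult replicate 1 and 2 without adult replicate 3. Keratinocyte genes summed to 55.6 to 523 CPM, highest in embryonic replicate 3, and 29.1 to 53.3 CPM, with 2 of 5 higher in embryonic (Krt1 at 102 and 0.393 CPM, Krt10 at 92.8 and 2.38 CPM), or 1 without adult replicate 2 or 3. With all libraries this embryonic count was also 1 under the filter of at least 1 count and under the replicate block. A single keratinocyte gene was called higher in adult cells without embryonic replicate 3, and 0 with all libraries. Without embryonic replicate 3 the members' log2 differences were 1.24 for Gata1, 0.55 for Gata2, -1.56 for Tal1, -3.68 for Lmo2, 1.31 for Lyl1, -2.10 for Runx1, 1.97 for Erg and -1.97 for Zfpm1, and 4 members were called in each direction as with all libraries.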

How the data were processed

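The deposited values are gene counts. They were made with featureCounts 1.5.0-p1 from the exons of GENCODE M9, with strand setting 0 and without reads flagged as duplicates, per the file headers. STAR and edgeR are among the tools, and GRCm38 (mm10) is the build, per the submitters' processing notes. The kit's strand use is not given in the sources used here, so overlapping and antisense genes cannot be told apart. Of the 47643 genes, 419 had no matching symbol.

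Counts were tested with edgeR 4.0.16 (R 4.3.3; limma 3.58.1): filterByExpr with a minimum count of 10, TMM scaling, a robust quasi-likelihood fit on group alone, Benjamini-Hochberg adjustment over 15111 genes, and an adjusted p threshold of 0.05. Each library had 34122162 to 49813523 counts. Within groups, replicates differed beyond sampling noise (chi-square over degrees of freedom 25.1 to 64.7), so all 6 were kept. The interval of the Gfi1b ratio and the CPM floors cover counting error only, and the intervals of log2 differences come from the edgeR fit and include the spread between libraries.

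The 10 members and the gene lists (partners, relatives and cofactors, ETS, other hematopoietic, mast cell, red cell, megakaryocyte, endothelial, basophil, eosinophil, macrophage, neutrophil, T cell, B cell, fibroblast, keratinocyte) were chosen with earlier results of these data known. In the first 5 lists, the 3 genes with the smallest adjusted p in each direction and the 2 most abundant per exon kilobase were named, and in the others the 2 most abundant. A gene that this rule names is not reported here. For nearest patterns 0.5 was added to CPM before taking log2. Genes named beyond this rule, such as Runx3, Tcf3, Tcf12, Cdh5, Ms4a1, Pax5, Zfpm2, Il1rl1, Csf1r, Adgre1 and Fcgr1, were chosen after their values were seen. Alternatives were other scaling, filters, thresholds and tools (DESeq2 1.42.0, limma-voom), a replicate block, and leaving out each library.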

Additional observations from a re-analysis of the deposited data

How the results depend on the processing

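Over 14 settings that give a fitted difference (TMM against RLE and upper quartile scaling, filters on low counts, DESeq2, limma-voom, no robust estimation, the replicate block, and leaving out each library), Gata1 stayed between 1.04 and 1.24 on the log2 scale, Gata2 between 0.49 and 0.67, Lyl1 between 1.09 and 1.35, Erg between 1.74 and 1.97, Tal1 between -1.62 and -1.34, Lmo2 between -3.76 and -3.62, Runx1 between -2.41 and -2.10, and Zfpm1 between -2.28 and -1.95. These 8 members passed the threshold in all 14, with the highest adjusted p at 0.028 for Lyl1 and 0.014 for Gata2. Fli1 ranged from -0.13 to 0.11 and passed in 0 of 14. Asking for at least 2-fold left 3 members higher in embryonic cells (Gata2 was lost) and 4 in adult cells, and over all genes 2601 and 3143. At 2-fold the partners had 1 gene higher in embryonic and 5 in adult cells, the relatives 1 in embryonic, the other ETS factors 0 in embryonic, and the other hematopoietic factors 0 in adult cells. Partners higher in adult cells numbered 5 at an adjusted p under 0.01 and 5 to 9 on leaving out single libraries. Other hematopoietic factors higher in adult cells numbered 2 with upper quartile scaling, 2 with at least 1 CPM in 3 libraries, and 1 to 2 on leaving out single libraries. The cause of these changes was not tested. With the replicate block 4 members were called in each direction, and 4379 of all genes had higher embryonic and 4469 higher adult levels. Deviations of same-numbered libraries correlated at -0.12, -0.079 and -0.13, no library correlated best with its own number, and nothing in the labels pairs them. Other changes concerned single list counts. Depth limited Gfi1b, at 2 to 15 counts per library, and to a lesser degree Lyl1.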
